A study of Mus musculus with 6 samples.

Results

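The genes described are ligands and receptors of the TGF-β and activin branch: *Tgfb1*, *Tgfb2*, *Tgfb3*, *Inhba*, *Inhbb*, *Tgfbr1*, *Acvr1b*, *Tgfbr2*, *Acvr2a* and *Tgfbr3*. They were taken by gene name from the deposited table, which holds all 10 of them among 19270 genes. The activin subunit *Inhba* and the activin type I receptor *Acvr1b* had the highest ratios of mutant to control mean, 1.33 and 1.32, whereas the 3 TGF-β ligands lay between 0.919 and 1.02. All 4 receptors and the co-receptor had a higher mean in the mutants, beside 50.5% of all genes. These are ratios of the authors' group means, which carry no spread between mice, so none of them could be tested.

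TGF-β ligands and activins are secreted dimers. A dimer binds a type II receptor, which phosphorylates a type I receptor, and the type I receptors of this branch phosphorylate SMAD2 and SMAD3, which enter the nucleus with SMAD4. Activin A is a dimer of the subunit made by *Inhba* and activin B of that made by *Inhbb*, and the same subunits form inhibins when paired with the product of *Inha*. TGF-β and activin signalling are both known to act in tooth development, and in the mouse incisor, a tooth that grows throughout life, the proximal mesenchyme holds the stem cells that supply the dental pulp and odontoblasts.

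Bulk RNA-seq was made from proximal mesenchymal tissue dissected from incisors of control and *Arid1b* mutant mice, with 3 libraries per group. *Arid1b* encodes a subunit of the BAF chromatin remodelling complex, and the study asked what its loss changes in this tissue. The mutants were Gli1-CreER;Arid1bfl/fl mice, and the controls were Arid1b fl/fl mice in the methods and wild type in the labels, so that the alleles of the controls are not given alike by both sources. Both groups received tamoxifen at 1 month of age and were collected 4 days later. Recombination was driven by the *Gli1* promoter, so the floxed alleles are lost only in cells that express *Gli1* and in their progeny, while the tissue as a whole was sequenced. The *Gli1* mean itself was 106.4 for controls against 46.1 for mutants. Neither source describes the controls as carrying Gli1-CreER, so this driver may be a further difference between the groups. Its part in the *Gli1* mean or in any other value was not tested.

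The targeted gene had the lower mean in the mutants, with *Arid1b* at 97.6 for controls and 38.0 for mutants. *Bcl11b*, a transcription factor gene that the study places downstream of *Arid1b*, had means of 33.6 and 52.6. The libraries held an estimated 37123643 to 49594469 reads on genes and shared an upper quartile of 44.6 normalized units. The groups also differed in sex-linked transcripts: the *Xist* mean was 3368 for controls and 813.8 for mutants, and the 4 Y-linked genes examined had control means of 0.0259 to 0.0434 and mutant means of 25.3 to 65.3, so sex and genotype cannot be told apart in any value given here. Genes listed for the dental mesenchyme were present. The most abundant, which are not particular to it, were *Col1a1* at 21211 and 17127 and *Vim* at 1463 and 1208 in controls and mutants. *Msx1* had means of 230.6 and 207.6, and *Pax9* of 46.5 and 46.3.

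The promoters of the 3 genes with the highest ratios are shown because they differ in base composition and in the motifs they hold. Each run is the 250 bases before a RefSeq transcription start on GRCm38.p6, 5′ to 3′ on the gene's own strand. Capitals mark GGGCGG, the GC box, or TATAAA, the TATA box, on either strand, so that CCGCCC is a GC box read from the other strand. CAGAC, the core SMAD-binding element, and TGANTCA, the AP-1 motif, were searched as well on both strands and are in none of the 3 runs.
*Inhba* promoter, chr13:16011601-16011850, plus strand: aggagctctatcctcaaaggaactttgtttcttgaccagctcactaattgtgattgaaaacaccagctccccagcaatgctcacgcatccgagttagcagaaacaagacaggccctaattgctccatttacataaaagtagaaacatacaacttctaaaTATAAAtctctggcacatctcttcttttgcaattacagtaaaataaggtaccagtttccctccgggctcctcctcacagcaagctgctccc
*Acvr1b* promoter, chr15:101173822-101174071, plus strand: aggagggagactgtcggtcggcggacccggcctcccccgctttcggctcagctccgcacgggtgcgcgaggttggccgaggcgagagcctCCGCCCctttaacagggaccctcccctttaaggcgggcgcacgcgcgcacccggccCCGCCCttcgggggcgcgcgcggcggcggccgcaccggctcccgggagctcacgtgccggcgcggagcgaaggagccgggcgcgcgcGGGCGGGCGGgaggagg
*Tgfbr1* promoter, chr4:47352972-47353221, plus strand: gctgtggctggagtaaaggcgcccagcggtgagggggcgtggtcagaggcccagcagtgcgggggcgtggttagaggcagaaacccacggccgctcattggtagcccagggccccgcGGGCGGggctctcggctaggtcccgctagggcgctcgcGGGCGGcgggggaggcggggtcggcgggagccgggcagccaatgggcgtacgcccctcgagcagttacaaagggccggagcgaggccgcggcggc
Over the full windows of 300 bases, which run past the start, GC content was 47.7% for *Inhba*, 79.7% for *Acvr1b* and 74.7% for *Tgfbr1*, against a median of 52.7% over 32851 windows of mouse genes. The *Inhba* window was the one of the 3 with a TATAAA, which begins at position -91 and is found in 13.6% of all windows. The *Acvr1b* window held 4 GC boxes, of which the pair at -17 and -13 overlap, and the *Tgfbr1* window held 2, at -133 and -95, while 35.7% of all windows hold at least 1. CAGAC was in 49.6% and TGANTCA in 7.81% of all windows. Among the windows of the other members, CAGAC was in those of *Tgfb2*, *Tgfbr2* and *Acvr2a* and in a downstream alternative start of *Tgfbr1*, and TGANTCA was in none of the windows of the 8 members that had one. These are matches of letters only.

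The means of the TGF-β ligands were close between the groups. *Tgfb1* (chromosome 7, 25687002-25705077, plus strand, GENCODE vM21 on GRCm38), which encodes the isoform best known from immune and connective tissue, had a normalized control mean of 162.5 and a mutant mean of 149.4. This was the lowest ratio among the members, 0.919, a log2 ratio of -0.12. *Tgfb2* (chromosome 1, 186622792-186705989, minus strand) had means of 328.6 and 336.5, a log2 ratio of 0.03. *Tgfb3* (chromosome 12, 86056745-86079041, minus strand) had means of 323.3 and 319.6, a log2 ratio of -0.02. The 3 isoforms share the same type I and type II receptors, and TGF-β2 depends most on the co-receptor for binding.

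The activin subunits were far less abundant than the TGF-β ligands. *Inhba* (chromosome 13, 16011851-16031621, plus strand) had a control mean of 38.7 and a mutant mean of 51.4, a log2 ratio of 0.41. *Inhbb* (chromosome 1, 119415465-119422248, minus strand), with the lowest means of the 10 genes, had 10.6 and 11.5, a log2 ratio of 0.12. The mutant mean was thus the higher one for both subunits, by 32.7% for *Inhba* and by 8.80% for *Inhbb*. *Inhba* was the member with the highest ratio, and 3.76% of the 10311 genes whose mean over both groups was 10 or more, and 11.1% of all genes, had a ratio as high or higher.

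Both type I receptors among the members, kinases that phosphorylate SMAD2 and SMAD3, had a higher mean in the mutants. *Tgfbr1* (chromosome 4, 47353222-47414931, plus strand), the type I receptor for TGF-β, had means of 111.8 for controls and 134.3 for mutants, a log2 ratio of 0.26. *Acvr1b* (chromosome 15, 101174067-101213684, plus strand), a type I receptor for activins, had means of 31.0 and 41.0, a log2 ratio of 0.40. Of the same 10311 genes, 3.86% had a ratio at or above that of *Acvr1b* and 6.50% a ratio at or above that of *Tgfbr1*.

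The type II receptors, which bind the ligand and activate the type I receptor, had smaller ratios. *Tgfbr2* (chromosome 9, 116084293-116175360, minus strand), the type II receptor for TGF-β, had means of 200.2 and 217.3, a log2 ratio of 0.12. *Acvr2a* (chromosome 2, 48814109-48903269, plus strand), which binds activins and some BMPs, had means of 31.9 and 37.2, a log2 ratio of 0.22. The co-receptor gene *Tgfbr3* (chromosome 5, 107106570-107289629, minus strand) encodes betaglycan, which presents TGF-β to its receptors and also binds inhibin. Its means were 31.7 for controls and 38.0 for mutants, a log2 ratio of 0.26.

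**Figure D1:**
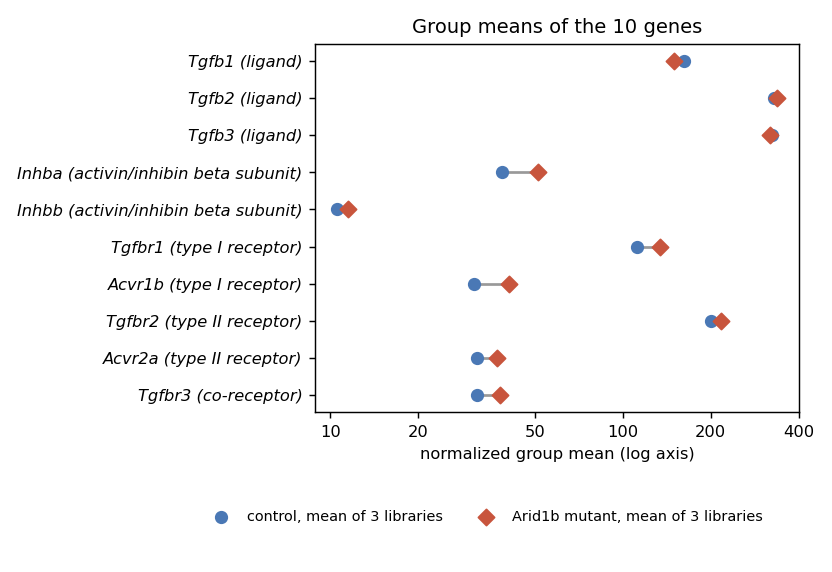
Normalized group means of the 10 genes on a log axis, with circles for the mean of the 3 control libraries and diamonds for that of the 3 mutant libraries. The longest connecting lines belong to *Inhba* (38.7 and 51.4) and *Acvr1b* (31.0 and 41.0), while the points of *Tgfb2* and *Tgfb3* nearly coincide, and no error bars are drawn because group means carry no spread between mice.

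Counted over the members, 8 had a higher and 2 a lower mean in the mutants, with a median log2 ratio of 0.17, whereas the median over all genes was 0.0022 and 50.5% of them had a higher mean in the mutants. At a ratio of at least 1.2, 3 members were higher in the mutants (*Inhba*, *Acvr1b* and *Tgfbr1*), beside 16.0% of all genes and 6.54% of those 10311 genes, a filter that all 10 members pass. No member was lower by this ratio, beside 15.7% of all genes and 6.37% of the 10311. At the fold of 1.5, which the study's methods used together with a limit on the FDR, no member was higher or lower, beside 7.37% and 5.8% of all genes. From its own RNA-seq comparison, which was not used here, the paper reports *Tgfbr1* and *Inhba* as significantly upregulated. The ratios of these 2 genes here lie below 1.5. The paper also reports more *Tgfbr1* transcript and ectopic activin A protein in stained sections of mutant incisors. The shares of all genes that were higher and lower were 25.0% and 25.1% at a ratio of 1.1, and 3.03% and 2.14% at a ratio of 2. The limit of 1.2 runs between 2 members with almost the same ratio, *Tgfbr1* at 1.201 just inside and *Tgfbr3* at 1.198 just outside. With the log2 ratios centred on the median of all genes, *Tgfbr1* moved to the other side, which left the 2 members *Inhba* and *Acvr1b*.

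**Figure D2:**
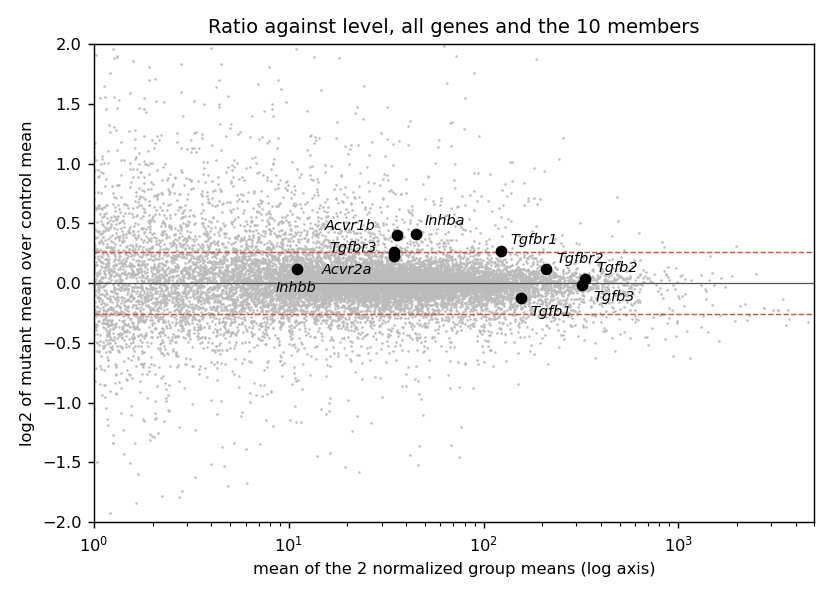
Log2 ratio of mutant over control mean against the mean of both groups on a log axis, for all genes (grey) and the 10 members (black), with dashed lines at a ratio of 1.2 in either direction; 4579 of 19270 genes lie outside the plotted range. *Inhba* and *Acvr1b* lie above the upper line, *Tgfbr1* lies on it at 1.201, and *Tgfb1* is the lowest member at -0.12.

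Counting error came out small for every member, but only if the normalized values are read as reads plus 1. Under the reading of the normalized values given with the processing, the fewest reads were those of *Inhbb*, an estimated 1226 over the 3 control libraries and 1521 over the 3 mutant libraries, with a 95% Clopper-Pearson interval of its ratio from 1.01 to 1.17. The interval was 1.28 to 1.38 for *Inhba*, 1.27 to 1.38 for *Acvr1b* and 1.17 to 1.23 for *Tgfbr1*. Of the 10 intervals, only that of *Tgfb3*, from 0.975 to 1.003, spanned a ratio of 1. These intervals cover counting error alone, and the differences between mice, which they leave out, could be larger.

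Levels of different genes were compared after division by the kilobases covered by each gene's exons. On this scale *Tgfb3* was the highest of the 10 genes, at 95.6 per kb for controls and 94.5 for mutants, and *Inhbb* the lowest, at 2.49 and 2.71. Between them, in the controls, came *Tgfb2* at 56.7 per kb, *Tgfb1* at 32.2, *Tgfbr2* at 24.5, *Tgfbr1* at 17.1, *Acvr1b* at 7.02, *Inhba* at 6.06, *Acvr2a* at 5.60 and *Tgfbr3* at 4.85. The same order was found in the mutants. The closest neighbours in the controls were *Inhba* and *Acvr2a*, whose levels per kb differed by 1.08 times there and by 1.23 times in the mutants. The closest in the mutants were *Tgfb1* and *Tgfbr2*, which differed by 1.12 times there and by 1.32 times in the controls. Whether such neighbours differ beyond the spread between mice cannot be read from group means. *Acvr2a* and *Tgfbr3* differed by 1.15 and 1.13 times, and *Acvr1b* and *Inhba* by 1.16 and 1.15 times.

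The place of *Tgfb1* depended on the length used. Its annotated exons include a retained-intron transcript, and with the longest protein-coding transcript of each gene, a choice made after its values were seen, *Tgfb1* stood above *Tgfb2* in both groups, with a ratio of *Tgfb2* to *Tgfb1* per kb of 0.859 for controls and 0.958 for mutants in place of 1.76 and 1.96. The other 8 genes kept their places.

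Summed per kb, the ligand and subunit members were level between the groups, while the receptor and co-receptor members had a higher sum in the mutants. Other receptors of the branch, most of them nearly level as given below, are not in these sums. The sums carry no spread between mice. The 5 ligand and subunit genes summed to 193.1 per kb in the controls and 193.0 in the mutants, a ratio of 0.999. *Tgfb3* made up 49.5% of the control sum and *Inhba* 3.14%, against 49.0% and 4.17% of the mutant sum. The 5 receptor and co-receptor genes summed to 59.0 per kb and 68.7 per kb, a ratio of 1.16. By role, the sum was 1.24 times as high in the mutants for the type I receptors and 1.101 times for the type II receptors, and 1.26 times for the activin subunits. With the longest protein-coding transcripts, the ratio was 0.986 for the ligands and subunits and 1.17 for the receptors and co-receptor.

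**Figure D3:**
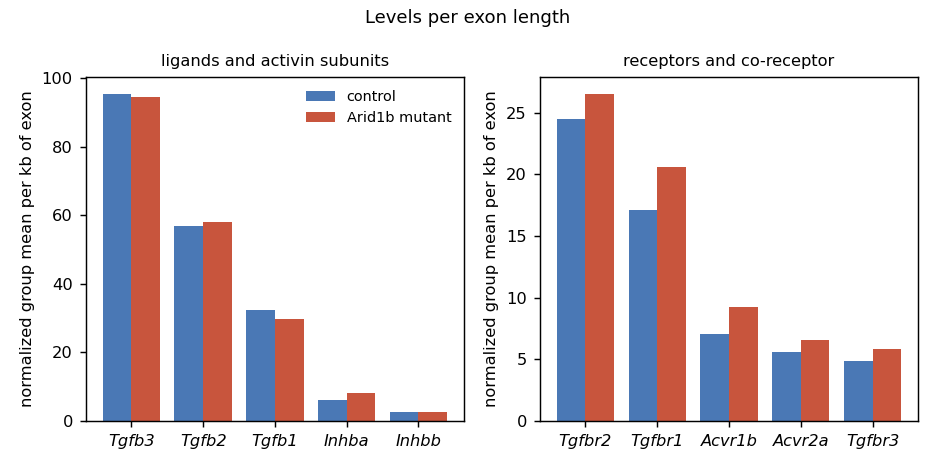
Normalized group means per kilobase of exon in controls and mutants, with ligands and activin subunits on the left and receptors and the co-receptor on the right, each axis starting at 0 and with its own range. *Tgfb3*, at 95.6 and 94.5, is the tallest pair, *Inhba* and *Inhbb* are the shortest pairs on the left, and the mutant bar is the taller one for all 5 genes on the right.

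Ratios between related members were taken on the same scale. *Inhba* exceeded *Inhbb* per kb by 2.44 times in the controls and 2.97 times in the mutants, and the level of *Inhba* relative to *Tgfb1* per kb was 0.188 and 0.271. Among the receptors, *Tgfbr1* exceeded *Acvr1b* by 2.44 and 2.22 times per kb, and *Tgfbr2* exceeded *Acvr2a* by 4.37 and 4.06 times. The TGF-β receptor of each type was therefore more abundant than the activin receptor set beside it in both groups. The ratio of *Tgfbr2* to *Tgfbr1* per kb was 1.43 in the controls and 1.29 in the mutants.

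Some members share sequence with genes on the other strand, and whether reads were counted by strand is not given in the sources used here. The exons of *Acvr2a* share 446 bases with *Orc4*, a replication gene on the opposite strand whose means were 48.1 for controls and 44.1 for mutants, so reads of the pair cannot be fully told apart. *Tgfb3* lies within the span of *Ttll5*, with means of 34.3 and 30.8, but their exons share 0 bases. The other genes of the table that overlap a member, *Gm29491* at *Tgfb2* and *Gm37804* and *Gm48008* at *Tgfb3*, had means of at most 0.387. In bulk tissue, fewer cells of a type and less RNA per cell cannot be told apart for any of these genes.

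The other listed ligands and subunits of the activin class mostly had a mean under 10. This list also holds the inhibin subunit gene *Inha* and the antagonist genes *Lefty1* and *Lefty2*. Of 11 listed, 6 were in the table, and *Gdf11*, a secreted ligand that uses activin receptors, was the one with a mean of at least 10, at 41.5 for controls and 31.3 for mutants, a log2 ratio of -0.41. Of these 6, 4 had a mutant mean lower by at least 1.2 times and 0 had one higher by as much, beside 15.7% and 16.0% of all genes. Besides *Gdf11*, the lower ones were 3 genes with group means from 0.0376 to 3.45. The smallest of these means lies close to the lowest mutant mean of any gene, 0.0231. Most of the remaining receptors were nearly level: of 7 listed, 6 were in the table, with a median log2 ratio of -0.02 and none past a ratio of 1.2. The type I receptor gene *Acvr1c* had low means of 2.44 for controls and 2.03 for mutants, a ratio of 0.834. *Acvr2b*, a type II receptor gene for activins, had 6.53 and 6.41. *Acvr1*, a type I receptor that mostly serves BMPs, had means of 73.8 and 73.7. *Acvrl1*, a type I receptor of endothelium, had a log2 ratio of -0.05, the co-receptor *Eng* 0.02 and the decoy receptor *Bambi* 0.01.

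Of the 5 genes in the table that were listed as activin antagonists, 4 had a higher mean in the mutants, beside 50.5% of all genes. Their median log2 ratio of 0.16 was the value of *Igsf10*. Whether *Igsf10* and *Tmeff1* act on activin was not tested, so their place in this list is a label only. By at least 1.2 times, 2 of the 5 were higher and 0 lower, beside 16.0% and 15.7% of all genes. All 5 had a mean over both groups of at least 10, and of genes with such a mean 6.54% were higher and 6.37% lower. *Fst*, which encodes follistatin and traps activin, had means of 15.7 and 19.4, and *Fstl3*, a follistatin relative, had 10.8 and 13.3, both with a ratio of 1.24. *Bambi* and *Tmeff1*, the lowest of this list, had log2 ratios of 0.01 and -0.02. The SMAD genes that relay or limit the signal all had a slightly lower mean in the mutants, with log2 ratios of -0.03 for *Smad2*, -0.06 for *Smad3*, -0.07 for *Smad4* and -0.04 for the inhibitory *Smad7*.

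TGF-β is secreted in a latent form that is stored in the matrix and released by integrins and proteases. All 13 listed genes of storage and release were in the table, with a median log2 ratio of 0.25. By at least 1.2 times, 5 were higher and 2 lower in the mutants, beside 16.0% and 15.7% of all genes. Among the 11 listed whose mean over both groups reached 10, 4 were higher and 2 lower, beside 6.54% and 6.37% of genes with such a mean. *Itgb6* and *Itgb8*, integrin subunits that activate latent TGF-β, had means of 5.72 and 21.2, and of 11.7 and 15.9. *Itgb6* is known as an epithelial integrin, and the summed mean of dental epithelium markers was also higher in the mutants, 10294 against 1590, a difference whose part in the value of *Itgb6* was not tested. The fibrillin genes *Fbn1* and *Fbn2*, whose products hold latent TGF-β in microfibrils, had the lowest ratios of the list, 0.699 and 0.727.

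Genes known as targets of SMAD2 and SMAD3 had means in both directions. All 12 listed were in the table, with a median log2 ratio of -0.03, 3 higher and 4 lower in the mutants by at least 1.2 times. Of all genes, 16.0% were higher and 15.7% lower by this ratio. Among the 11 listed whose mean over both groups reached 10, 3 were higher and 3 lower, beside 6.54% and 6.37% of genes with such a mean. *Bhlhe40*, a transcription factor gene, and the collagen gene *Col3a1* had the highest ratios, 1.37 and 1.24. The matrix genes *Fn1* and *Tgfbi* had the lowest among those whose mean over both groups reached 10, 0.776 and 0.793. TGF-β family ligands can also engage the ERK pathway. Of 17 listed genes that are its targets or feed back on it, 16 were in the table, with a median log2 ratio of 0.15. By at least 1.2 times, 5 were higher and 0 lower. Among the 10 whose mean over both groups reached 10, 3 were higher and 0 lower, beside 6.54% and 6.37% of genes with such a mean. *Egr1*, an immediate early gene, had means of 7.96 and 14.7, and *Spry1*, a feedback inhibitor, had a ratio of 1.21. Among the genes of this list whose mean over both groups reached 10, the lowest ratios were those of *Etv1*, 0.988, and *Spry4*, 1.06.

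**Figure D4:**
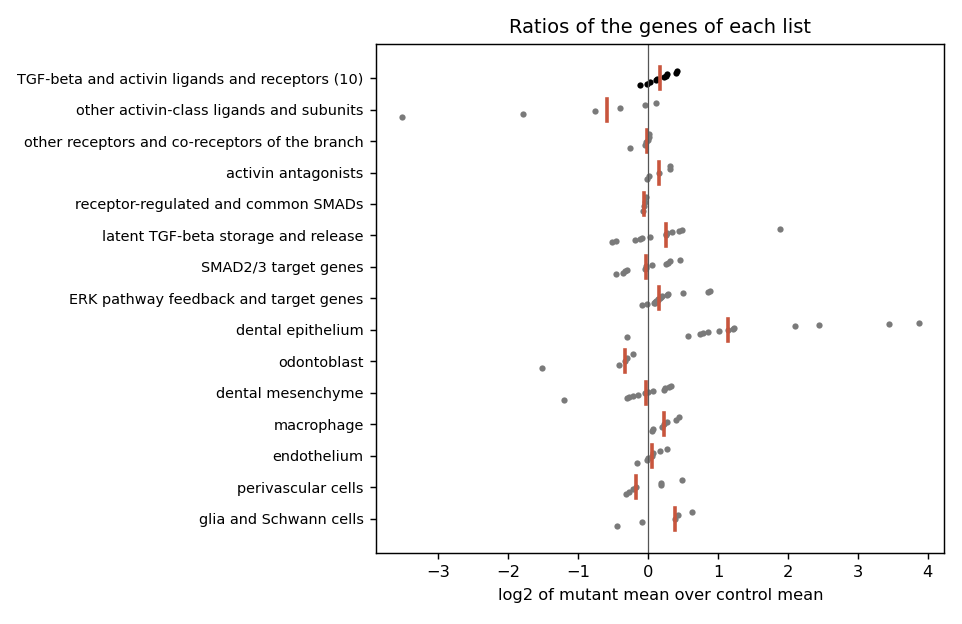
Log2 ratio of mutant over control mean for each gene of the 10 members, of the pathway lists and of the lists of cell type markers, 1 point per gene, with a vertical bar at the median of the list. The members lie between -0.12 and 0.41 around a median of 0.17, and the dental epithelium list stands farthest to the right, with a median of 1.15.

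Markers of other cells differed between the groups beside these values. Of 13 dental epithelium markers, 12 were higher in the mutants by at least 1.2 times and 1 was lower, beside 16.0% and 15.7% of all genes. Their summed mean was 1590 for controls and 10294 for mutants. The most abundant were the enamel matrix genes *Amelx*, at 361.9 and 3946, and *Ambn*, at 617.4 and 3360. None of the 13 was at the lowest mean of its group. Odontoblast markers had a lower mean in the mutants for 5 of 5 genes, while 50.5% of all genes had a higher one. *Dspp* had means of 5179 and 4136 and *Col1a2* of 4106 and 3330, and the summed mean was 10470 and 8384.

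Macrophage markers had a higher mean in the mutants for 7 of 7 genes, beside 50.5% of all genes, and 3 of the 7 by at least 1.2 times. *Lyz2* had means of 125.8 and 131.7 and *Csf1r* of 84.8 and 97.3, and the summed mean was 321.0 and 357.1. For endothelium, 1 of 7 markers was past this ratio, with *Cdh5* at 95.2 and 94.4 and *Vwf* at 80.3 and 96.9, and a summed mean of 404.3 and 423.5. For perivascular cells, 1 of 7 was higher and 2 were lower, with *Rgs5* at 411.0 and 340.1 and *Pdgfrb* at 176.8 and 142.5. Glial markers were low, with *Mbp* at 11.3 and 15.2, and 3 of 5 were higher and 1 lower. Only 1 of these 5 reached a mean over both groups of 10. The shares of all genes past the same ratio were 16.0% higher and 15.7% lower. For the dental mesenchyme itself, 2 of 12 were higher and 3 lower, *Gli1* among the lower ones, with a median log2 ratio of -0.03. The part of these cell types in the ratios of the 10 ligand and receptor genes was not tested.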

How the data were processed

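RNA-seq of 3 control and 3 mutant libraries was analysed from 2 deposited tables. The submitters' processing notes name TopHat2 2.0.8 and the mm10 build, and the methods describe trimming and a comparison of groups in Partek Flow. The counter, annotation and model are not given in the sources used here. The group means are a normalized signal made by the authors, with 1 mean per gene and group. The values were taken as reads plus 1, scaled per library to a common upper quartile. In both groups the smallest mean matches the average minimum of that group's libraries, so some genes lie at the minimum in every library. That match does not show that the minimum is worth 1 read, and on this reading only part of the low values are whole reads. The reading as reads plus 1 is therefore an unproven inference, and reads per gene and their intervals rest on it. They and the read totals, 37123643 to 49594469 per library, cover counting error only. The authors' columns of p-values, FDR, ratio and fold change hold their own comparison and were not used, nor were their table of selected genes and 4 numeric columns of the library summary. Single-library gene values are not analysed here, and the means allow no test across mice.

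Ratios, log2 ratios and levels per kilobase of exon (GENCODE vM21) were computed from the group means; 18840 of 19270 names matched 1 annotated gene. A ratio of 1.2 and a mean over both groups of at least 10 were used as limits. The members and lists were chosen with earlier results of these data known. Genes named were the 10 members, *Arid1b*, *Bcl11b*, the 2 highest and 2 lowest ratios of each pathway list that reach this mean, and the 2 most abundant markers of each cell type. *Gli1*, the sex-linked genes and genes that overlap a member were named after their values were seen. So were *Lefty1*, *Lefty2*, *Igsf10*, *Acvr1c*, *Acvr2b*, *Msx1* and *Pax9*. A gene covered by these rules is not reported here. Promoter windows, found for 8 of 10 members, were from RefSeq on GRCm38.p6. Counting of ratios past the limit of 1.2 was run on simulated data whose planted ratios lay far from it. That run checks the code only and does not cover genes near the limit. Computation was in Python 3.11.15 with scipy 1.17.1, pandas 2.3.3 and numpy 2.4.6, and plotting in matplotlib 3.10.9.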

Additional observations from a re-analysis of the deposited data

How the results depend on the processing

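The number of members with a higher mutant mean was 5 at a ratio of 1.1, 3 at 1.2, 0 at 1.5 and 0 at 2, and the number with a lower mutant mean by these ratios was 0 at each. Subtracting the lowest mean, an alternative chosen after seeing the data for this count, a pseudocount of 1 and centring moved no member's log2 ratio by 0.1. With the longest protein-coding transcript, also chosen after seeing the data, 8 of 10 members kept their place in the order per kb in the controls and 8 in the mutants, *Tgfb1* and *Tgfb2* changing places. No paired analysis was possible because only group means were used, and for the same reason no library could be left out. Group means limit every ratio, since the spread between mice is not in them.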
